A study of Rattus norvegicus with 12 samples.

Results

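The Cacng family comprises Cacng1 to Cacng8, 8 genes for the gamma subunits of voltage-gated calcium channels and their relatives, and it was followed here in cultured rat cerebellar cells exposed to acetamiprid (ACE), a neonicotinoid insecticide that acts on nicotinic acetylcholine receptors (nAChRs). Members were found by the gene name that the deposited files give to each probe. This selected 8 of the 26214 gene names and 10 of the 30367 gene probes of the array, with 1 probe each for 6 genes and 2 probes each for Cacng1 and Cacng6. The family was chosen by the control versus ACE (CvA) difference of Cacng1, which was already known, so the differences between the groups are described below without a test of single members.

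The 12 arrays, labelled with 1 dye, came from neuron-enriched cultures of the cerebellum of 1-day-old Sprague-Dawley rats. The 6 control cultures received 0.001% dimethyl sulfoxide, the solvent, and the 6 ACE cultures received 1 µM ACE in the same amount of solvent from day 2 to 16 days in vitro (DIV). Per the study's methods, cells of 1 culture lot were divided among the groups, so that the control and the ACE array with the same replicate number form a pair. The cultures are mixed, with neurons beside glia, and each array reports the RNA of the whole dish. With such bulk RNA, fewer cells of a type and less RNA per cell cannot be told apart.

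In skeletal muscle, Cacng1 encodes the gamma subunit of the L-type calcium channel that senses the membrane voltage and sets off calcium release for contraction. Cacng6 is its closest relative and is also known as a muscle gene. The other members encode transmembrane AMPA receptor regulatory proteins (TARPs), which act with AMPA-type glutamate receptors. Cacng2 (stargazin), Cacng3, Cacng4 and Cacng8 are type I TARPs, which bring these receptors to the synapse and slow their closing. Cacng5 and Cacng7 are type II TARPs. Stargazin is best known from the cerebellum, because mice without it lack AMPA receptors at granule cell synapses and are ataxic.

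Each member was read by probes of 60 bases, and the sequences of the 2 genes with 2 probes are given because the values below turn on which stretch of the transcript was read. They are printed 5′ to 3′ as deposited, with rn4 coordinates from the same files, and all lie on the minus strand.
Cacng1, first probe (A_64_P064820), chr10:97105708-97105767: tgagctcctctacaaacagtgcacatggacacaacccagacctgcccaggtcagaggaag
Cacng1, second probe (A_43_P11994), chr10:97105946-97106005: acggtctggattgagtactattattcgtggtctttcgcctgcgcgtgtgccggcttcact
Cacng6, first probe (A_64_P070891), chr1:64051888-64051947: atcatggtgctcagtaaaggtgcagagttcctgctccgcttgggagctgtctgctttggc
Cacng6, second probe (A_64_P120445), chr1:64053631-64053690: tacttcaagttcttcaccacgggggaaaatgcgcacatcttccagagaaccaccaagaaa

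The starts of the Cacng1 probes were 238 bases apart on the genome and 238 bases apart in the transcript positions that the files give, so no intron lies between them. For Cacng6 the corresponding distances were 1743 and 132 bases, so that at least part of an intron separates its probes. The 60 bases of the Cacng8 probe spanned 2733 bases of chromosome 1, and this probe therefore crosses an intron. Over the 45 pairs of family probes the longest run of identical bases was 8, so no pair of probes was close in sequence. Members of both kinds are neighbours on the genome. The probe of Cacng4 lay 33.4 kb from the nearer Cacng1 probe and that of Cacng5 a further 161 kb away on chromosome 10, and the probe of Cacng8 lay 15.4 kb from the nearer Cacng6 probe and 42.5 kb from that of Cacng7 on chromosome 1. Cacng3 (chr1:181594005-181594064, plus strand) and Cacng2 lay apart from these groups.

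Array brightness, as the 75th percentile of the deposited processed intensity, ran from 1803 to 4384 units, and 75.4 to 91.0% of gene spots were well above background. Precision was limited by the number of arrays. Neuronal markers were well above background on all 12 arrays (Map2, Snap25 and Tubb3), as were the Purkinje cell markers Calb1, Pcp2 and Car8. The granule cell markers Gabra6, Neurod1 and Zic1 were also well above background on all 12 arrays. The glutamate transporter gene Slc17a7 of granule cells was well above background on 0 control and 2 ACE arrays. Control 1, control 2, control 6 and ACE 1 had the highest mean log2 signal of skeletal muscle genes, as detailed with Cacng1 below. Across all 23796 probes past the filter on low signal, 0 (0%) passed the adjusted threshold of 0.05 in the paired limma fit, and the lowest adjusted p of this limma fit was 0.141. At an unadjusted limma p under 0.05, 9.73% of probes were lower and 6.9% were higher in ACE, and the same direction in all 6 pairs was found for 6.86% (lower) and 4.72% (higher).

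In the family, 9 of the 10 probes passed the filter. The exception was the second probe of Cacng6. None of the 9 (0) passed the adjusted limma threshold. At an unadjusted limma p under 0.05 the family held 1 lower and 0 higher probes, and 1 probe was lower in all 6 pairs. This contrast chose the family and fixed these counts, so nothing is read from them.

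**Figure D1:**
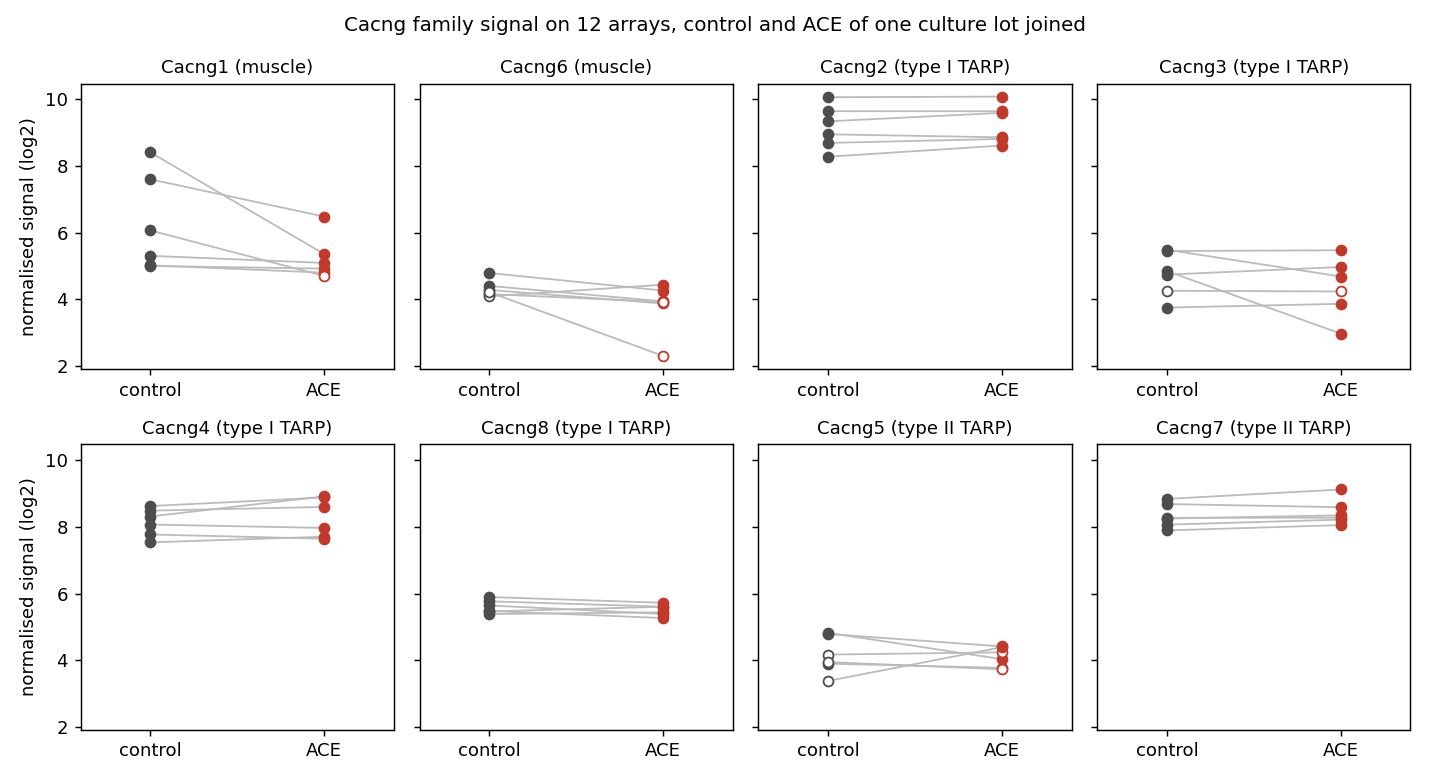
Normalised signal (log2) of the 8 family genes on the control and ACE arrays, 1 point per array, with a line joining the 2 arrays of a culture lot. Filled points were well above background and open points were not. The control points of Cacng1 spread from 5.00 to 8.42 and its ACE points from 4.70 to 6.49, while the lines of Cacng2, Cacng7 and Cacng8 run nearly level.

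Cacng1, the muscle gamma subunit, gave the lowest mean difference of the family. On its first probe the log2 signal of the control arrays was 7.61, 8.42, 5.00, 5.03, 5.31 and 6.07 in replicates 1 to 6. The log2 signal of the ACE arrays in the same order was 6.49, 5.36, 4.93, 4.80, 5.10 and 4.70. Replicates 1, 2 and 6 were high in control, the other control arrays lay at or near the ACE levels, and the groups overlapped. The signal was well above background on 6 control and 5 ACE arrays. Control arrays averaged 6.24 ± 1.45 log2 and ACE arrays 5.23 ± 0.66 log2 (SD, n = 6 each), a difference of -1.01 ± 0.41 (limma SE) or 0.497-fold. ACE was lower in 6 of 6 pairs, but the pair differences were uneven, at -1.12, -3.05, -0.08, -0.22, -0.21 and -1.37 on the log2 scale (SD 1.13). For comparison, the median SD of pair differences over all probes tested was 0.125 log2. Replicate 2 contributed most. Without it the mean log2 difference was -0.60, without replicates 1 and 2 it was -0.47, and in replicates 4 to 6, which shared 1 scan batch, it was -0.60. With the normexp background correction the mean over all pairs was -0.55 log2.

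The second probe of Cacng1, which reads the transcript upstream of the first, was well above background on 5 arrays of each group. It averaged 6.34 ± 1.43 log2 on the control and 5.51 ± 0.84 log2 on the ACE arrays (SD, n = 6 each), and the difference was -0.83 ± 0.59 (limma SE). ACE was lower in 4 of 6 pairs. The pair differences on the log2 scale were -0.95, -3.01, 1.54, 0.36, -2.11 and -0.83, so that pairs 1, 2 and 6 resembled the first probe, pair 4 had the opposite sign, and pairs 3 and 5 were farthest from it. The second probe exceeded the first by 1.91 log2 on control 5 and by 1.78 log2 on ACE 3, whereas on the other 10 arrays it lay between -0.52 and 0.16 log2 of the first. On these arrays the spot itself was uneven. The SD between its pixels was 42.1% of the mean signal on control 5 and 42.3% on ACE 3, against 14.4 to 31.7% on the other 10 arrays and 10.6 to 23.1% for the spots of the first probe. The software had not marked either spot as an outlier, and the part of the uneven pixels in the difference was not tested. The correlation of the Cacng1 probes was 0.775 over the 12 arrays and 0.984 without control 5 and ACE 3. These arrays were left out because the probes differed most on them, which raises r by construction.

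**Figure D2:**
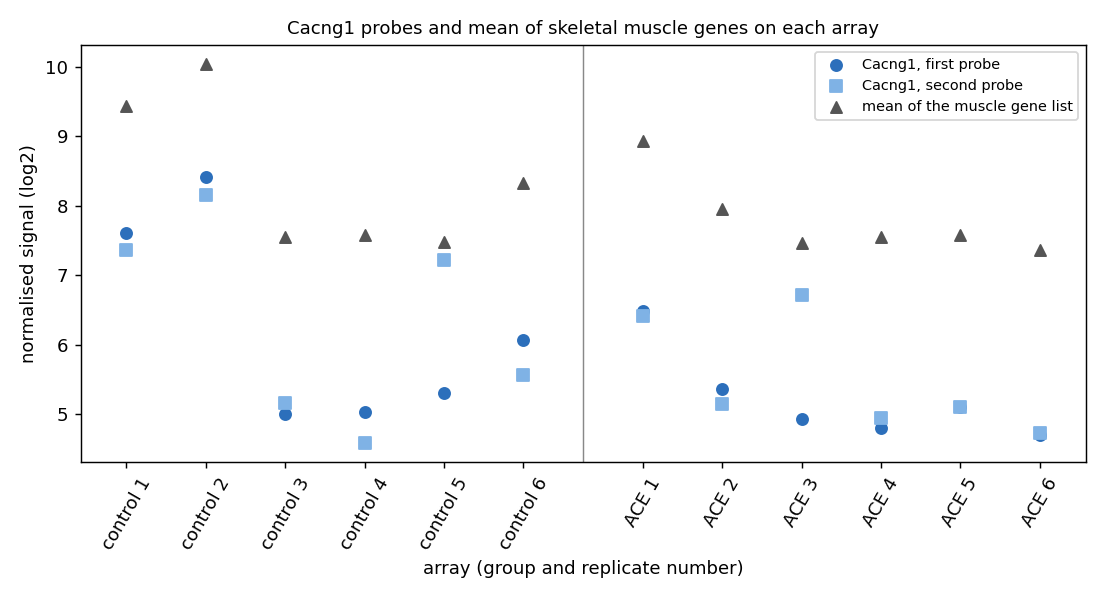
Normalised signal (log2) of the first and second Cacng1 probe and mean log2 signal of 31 skeletal muscle genes on each of the 12 arrays. All 3 series are high on control 1, control 2 and ACE 1, and the second probe stands alone above the first on control 5 and ACE 3. Heights of different series are not comparable.

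Other muscle genes moved with Cacng1 across the arrays. The list of skeletal muscle genes, which leaves out the genes that the study listed for CvA, held 40 genes, of which 38 were on the array, 31 passed the filter and 22 were well above background on all 12 arrays. Its mean log2 signal in replicates 1 to 6 was 9.43, 10.04, 7.54, 7.57, 7.47 and 8.33 in control and 8.93, 7.95, 7.46, 7.55, 7.57 and 7.36 in ACE. The control arrays of replicates 1, 2 and 6 and the ACE array of replicate 1 were the highest on this scale, and ACE 2 followed. The pair differences of this mean were -0.50, -2.09, -0.08, -0.02, 0.10 and -0.97 on the log2 scale. Pairs 2, 6 and 1 had the largest differences in that order, as they did for the first probe of Cacng1. The summed normalised intensity of the list ran from 60150 to 187300 with a median of 92625 in control and from 61130 to 112900 with a median of 71755 in ACE, so that the groups overlapped. The brightest genes dominate the sums. These were Myh8 and Pvalb, with a mean log2 signal of 15.24 and 14.49 in control, and they differed by only -0.15 and -0.01 log2. The sums ordered the arrays differently from the mean log2 signal and from Cacng1. Control 2 (187300) and ACE 2 (112900) were highest, and control 5 (100600) lay above control 1 (98390), control 6 (86860) and ACE 1 (74050). The part of muscle cells in the Cacng1 difference was not tested.

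Within the muscle list 30 of 31 genes were lower and 1 was higher in ACE, with a median log2 difference of -0.43, against a median of -0.0050 over all 23796 probes, of which 52.15% were lower. Lower in all 6 pairs were 0 of the 31 genes, against 6.86% of all probes. None of the list (0) passed the adjusted limma threshold, and 4 were lower (Cav3, Chrna1, Myf5 and Tcap, named after their values were seen) and 0 higher at an unadjusted limma p under 0.05, where 9.73% of all probes were lower. Of its defining genes, embryonic myosin Myh3 differed by -2.80 ± 1.22 log2 and the fast myosin light chain Mylpf by -2.18 ± 1.09 log2 (limma SE). The muscle nAChR subunit Chrna1 differed by -0.33 ± 0.11 log2, perinatal myosin Myh8 by -0.15 ± 0.11 log2 and muscle creatine kinase Ckm, well above background on only 2 arrays of each group, by -0.43 ± 0.65 log2. The myogenic factor Myod1 did not pass the filter and was well above background on 3 control arrays and 1 ACE array. Among the others measured on all arrays, the largest differences were those of Myl4 (-1.37 ± 0.73), Chrng (-1.18 ± 0.67) and Myoz2 (-0.79 ± 0.44), an atrial and embryonic myosin light chain, the fetal nAChR gamma subunit and a Z-disc protein.

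Cacng1 works in muscle as part of a complex with the channel pore, its other subunits and the calcium release machinery. Of 12 genes listed for this complex, 12 were on the array and 10 passed the filter. Of these, 7 were lower and 3 higher in ACE, with a median log2 difference of -0.219, and 0 passed the limma threshold with or without adjustment. Over all probes 52.15% were lower, and at an unadjusted limma p under 0.05 the shares were 9.73% lower and 6.9% higher. Cacna1s, the pore subunit, had the largest difference of the list at -1.28 ± 0.60 log2 (limma SE), with ACE lower in 5 of 6 pairs. The remaining channel subunits, which other tissues also use, differed little. Cacna2d1 was at -0.15 ± 0.11 log2 and Cacnb1 at 0.08 ± 0.07 log2. Among those well above background on all arrays, the calcium pump Atp2a1 differed by -0.81 ± 0.60 log2 and the calcium store protein Casq1 by -0.29 ± 0.26 log2, with ACE lower in 3 of 6 pairs for both. The release channel Ryr1 did not pass the filter and was well above background on 3 control arrays and 1 ACE array, and Stac3 on 2 and 1.

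Cacng6, the other muscle member, was near the detection limit. Its first probe was well above background on 3 control and 4 ACE arrays. The log2 signal ran from 4.09 to 4.79 with a median of 4.25 in control and from 2.31 to 4.44 with a median of 3.94 in ACE. The groups overlapped, and ACE 6 lay far below every other array. The mean log2 difference was -0.53 ± 0.27 (limma SE), with ACE lower in 5 of 6 pairs, -0.26 without replicate 6 and -0.11 with the normexp background correction. The second probe, well above background on 1 array of each group, had a mean log2 difference of -0.19 with an SD of pair differences of 0.66. The correlation between the 2 Cacng6 probes over the 12 arrays was 0.106. In replicate 2, where the muscle list mean differed by -2.09 log2, the pair difference of the first Cacng6 probe was -0.46 log2.

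Cacng2 was clearly expressed, with a signal well above background on all 12 arrays. Its log2 signal ran from 8.28 to 10.07 with a median of 9.15 in control and from 8.62 to 10.09 with a median of 9.23 in ACE. The culture lots, each on a slide of its own, differed far more than the groups. The SD over lots was 0.65 log2 in control and 0.59 log2 in ACE, while the SD of the pair differences was 0.16 log2. The mean log2 difference was 0.11 ± 0.06 (limma SE), with ACE higher in 4 of 6 pairs and differences of 0.33 and 0.25 in pairs 1 and 2. In replicates 4 to 6 alone the mean log2 difference was -0.03.

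Cacng4, a type I TARP prominent in the developing brain, was also well above background on all 12 arrays. Control arrays averaged 8.13 ± 0.42 log2 and ACE arrays 8.29 ± 0.58 log2 (SD, n = 6 each). The difference was 0.15 ± 0.10 log2 (limma SE), higher in ACE in 4 of 6 pairs, of which pair 4 gave 0.61, and it was 0.06 log2 without replicate 4. Cacng4 and its neighbour Cacng1 thus had mean differences of opposite sign. Over the pairs, however, the r of their differences was 0.670 for the first and 0.469 for the second Cacng1 probe.

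Cacng8, the type I TARP best known from the hippocampus, was well above background on all 12 arrays and was the steadiest member. Its log2 signal ranged over 0.63 across the 12 arrays, against a median range of 0.918 for all probes tested and 3.71 for the first probe of Cacng1. The mean log2 difference was -0.10 ± 0.06 (limma SE), with ACE lower in 4 of 6 pairs. Cacng3 was dimmer, well above background on 5 arrays of each group. The log2 signal of Cacng3 ran from 3.76 to 5.49 with a median of 4.80 in control and from 2.97 to 5.48 with a median of 4.46 in ACE. Its mean log2 difference of -0.39 ± 0.29 (limma SE) came from pairs 1 and 2, at -1.88 and -0.80, and the remaining pair differences lay between -0.02 and 0.23. Without replicate 1 the mean log2 difference of Cacng3 was -0.09, and without replicates 1 and 2 it was 0.09.

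Of the type II TARPs, Cacng7, which is known from cerebellar neurons, was well above background on all 12 arrays. Control arrays averaged 8.33 ± 0.36 log2 and ACE arrays 8.43 ± 0.38 log2 (SD, n = 6 each), with a difference of 0.10 ± 0.05 log2 (limma SE) and ACE higher in 5 of 6 pairs. Cacng5, known from Bergmann glia, was well above background on 3 control and 4 ACE arrays. Its log2 signal ran from 3.38 to 4.82 with a median of 4.06 in control and from 3.73 to 4.41 with a median of 4.13 in ACE. The pair differences of Cacng5 lay between -0.79 and 1.01, and their mean of -0.07 ± 0.22 log2 (limma SE) turned to 0.07 without replicate 2.

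**Figure D3:**
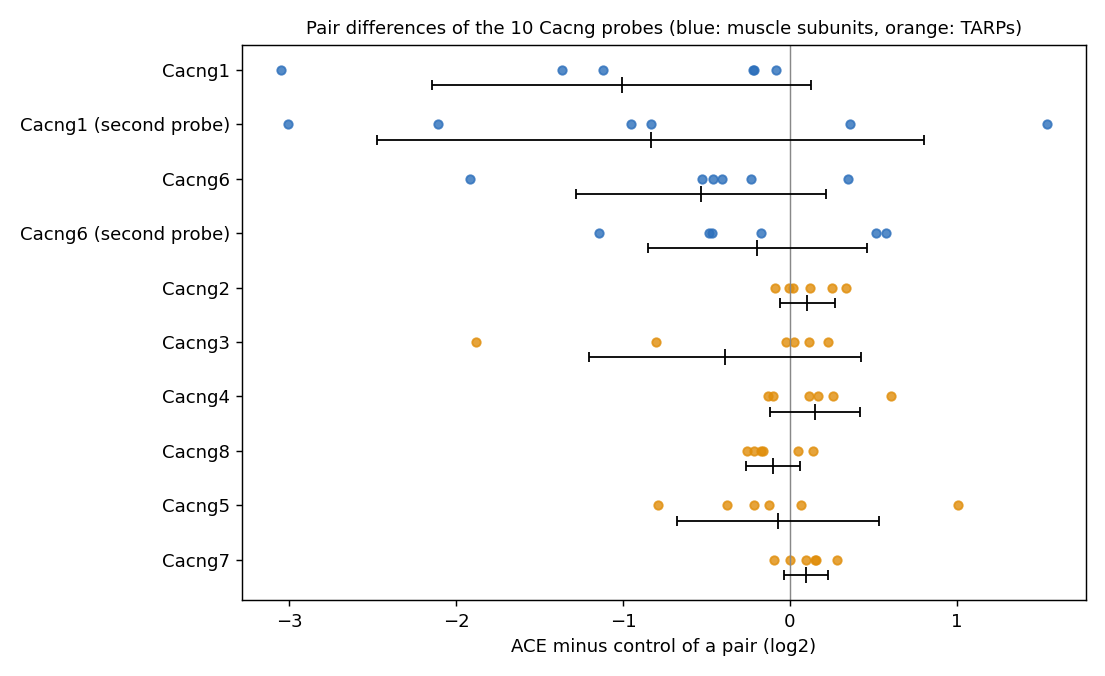
Difference between the ACE and the control array of each of the 6 pairs (log2) for the 10 family probes, with the mean and SD over pairs as a black mark and bar below the points. The first probe of Cacng1 has all 6 points below 0, and the points of Cacng2, Cacng7 and Cacng8 lie within about 0.33 of 0.

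The muscle members were then set against the TARPs, with 1 probe per gene. In pairs 1 to 6 the mean log2 difference of Cacng1 and Cacng6 was -0.82, -1.76, -0.24, -0.23, 0.07 and -1.64. The mean log2 difference of the 6 TARPs in the same pairs was -0.39, -0.26, 0.10, 0.14, 0.21 and -0.002. The muscle members were thus lower in ACE in 5 of 6 pairs and the TARPs in 3 of 6. The muscle mean minus the TARP mean was -0.44, -1.50, -0.34, -0.37, -0.14 and -1.64 log2, below 0 in 6 of 6 pairs, with a mean of -0.74 and an SD of 0.65. The lowest values were those of pairs 2 and 6. In pair 2 the Cacng1 difference was -3.05 and the Cacng6 difference -0.46 log2, and in pair 6 they were -1.37 and -1.91 log2. In pair 6 Cacng6 was not well above background on either array and Cacng1 not on the ACE array, so the sizes of these differences are uncertain. The mean was -0.62 without replicates 1 and 2, -0.71 in replicates 4 to 6 alone, and -0.35 with the normexp background correction, which draws dim signals together. The count of 6 of 6 pairs rests on the first Cacng1 probe. With the second probe, which differed by 1.54 in pair 3, the contrast of pair 3 was above 0. Its mean was then -0.65 with an SD of 0.78. This contrast is the one that the choice of the family rested on, so it has no test here.

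**Figure D4:**
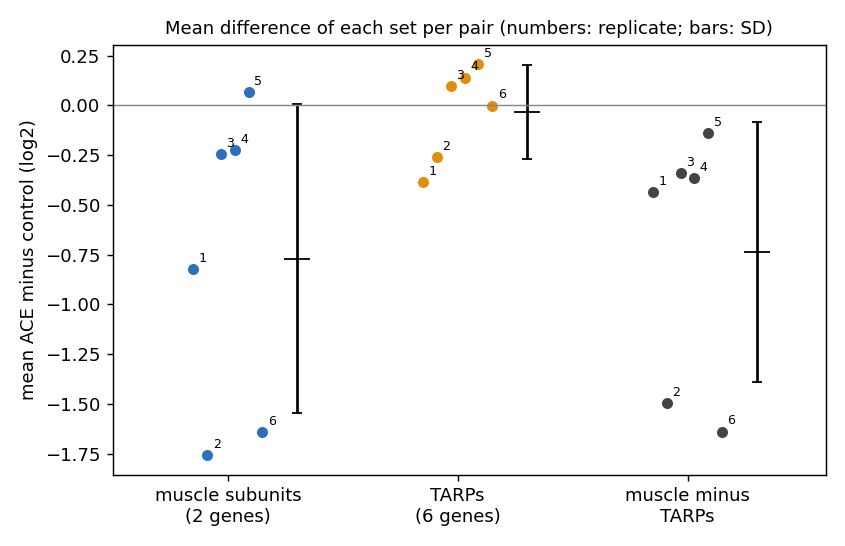
Mean ACE minus control difference (log2) of the muscle members, of the TARPs and of the muscle members minus the TARPs in each pair, numbered by replicate, with the mean and SD (n = 6 pairs) at the right of each set. With the first Cacng1 probe, which is the one plotted, muscle minus TARPs is below 0 in all 6 pairs and lowest in pairs 2 and 6.

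TARPs act with AMPA receptor subunits and synaptic anchoring proteins, and 19 such genes were listed. Of these, 17 were on the array and passed the filter, and 15 were well above background on all 12 arrays. In ACE, 8 were lower and 9 higher, with a median log2 difference of 0.000, and 0 passed the adjusted limma threshold. At an unadjusted limma p under 0.05, 1 of the 17 was lower and 2 were higher, beside 9.73% and 6.9% of all probes. The 4 receptor subunits differed by -0.22 ± 0.14 (Gria1), -0.02 ± 0.05 (Gria2), 0.01 ± 0.07 (Gria3) and 0.04 ± 0.03 (Gria4) on the log2 scale (limma SE). The scaffold gene Dlg4 (PSD-95), to which TARPs bind, had the largest difference of the list, 0.33 ± 0.07 log2, and was higher in ACE in 6 of 6 pairs. The kinase subunit gene Camk2b was at -0.12 ± 0.10 log2. Grip2, a scaffold that binds receptor subunits, was at 0.17 ± 0.06 log2, and Grip1 at -0.10 ± 0.03 log2 was lower in 6 of 6 pairs. Over all probes 4.72% were higher and 6.86% lower in all 6 pairs. The mean log2 signal of the 17 genes in a pair moved by -0.04 to 0.10.

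Markers of neural cell types were summarised in the same way. The median log2 difference was 0.049 for 9 pan-neuronal genes, -0.0209 for 13 granule neuron genes, 0.0175 for 9 Purkinje cell genes and 0.114 for 8 genes of inhibitory interneurons. It was -0.0216 for 11 astrocyte and Bergmann glia genes, 0.0155 for 12 genes of the oligodendrocyte lineage and 0.0666 for 10 microglia genes. None of these lists held a gene past the adjusted limma threshold (0 in each). At an unadjusted limma p under 0.05 each held 0 to 1 lower and 0 to 2 higher genes. Over all probes the corresponding shares were 9.73% and 6.9%. The same direction in all 6 pairs was found for 6.86% (lower) and 4.72% (higher) of all probes. The interneuron list, which had the largest of these medians, was higher in ACE for 6 of 8 genes, and its mean log2 signal was higher in 5 of 6 pairs. In it the glycine transporter Slc6a5 was at 0.33 ± 0.10 log2 (limma SE) and higher in 6 of 6 pairs. Cbln1 of the granule neuron list, at 0.28 ± 0.09 log2, was likewise higher in 6 of 6 pairs, but 9 genes of that list were lower and 4 higher. The microglial chemokine receptor Cx3cr1, at -0.35 ± 0.08 log2, was lower in 6 of 6 pairs, unlike most of its list. Of the microglia genes 8 were higher and 2 lower in ACE, and Aif1, at 0.19 ± 0.06 log2, was higher in 6 of 6 pairs. The mean log2 signal of the microglia list, however, differed by 0.44 in pair 1. In pairs 2 to 6 the differences of this mean were 0.01, -0.01, -0.10, -0.10 and -0.01.

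The genes whose signal most resembled that of each member over the 12 arrays were sought among 13598 named genes. Arrays of 1 culture lot share their cells, so the correlations are a description. Cacng1 was closest to the muscle ankyrin repeat gene Ankrd1 (r = 0.986), myoglobin Mb (0.978), the myosin chaperone Unc45b (0.978), Myl4 (0.977) and cardiac actin Actc1 (0.972). Of these, Myl4 is on the muscle list, and Mb, Unc45b and Actc1 stood on the study's own CvA list. Over the 6 control arrays alone r was 0.975 to 0.989 for the 5 genes, and without the arrays of control 1 and 2 it was 0.903 to 0.974. Cacng2 was closest to Lin7b (r = 0.980), the vesicular GABA transporter Slc32a1 (0.980), Syngr3 (0.973), Cplx1 (0.970) and the neuronal transcription factor Neurod2 (0.962). Cacng7 was closest to Cbln2 (r = 0.967), a secreted synapse organiser, followed by Ipo5 (0.938), Spr (0.936), Slc6a17 (0.920) and Hhatl (0.919).

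For Cacng4 the closest genes were Sys1 (r = 0.978), the chromatin remodeller Smarca4 (0.967), Ptchd4 (0.949), Cyp2u1 (0.948) and Vps13b (0.941). Cacng8, with its narrow range, was closest to Crygs (r = 0.920), Lrrc58 (0.916), Klhl15 (0.906), Actl7a (0.899) and Vps11 (0.873). The dim members gave lower values. Among the genes closest to Cacng5 were Chrnd (r = 0.854), Neb (0.850), Asb3 (0.828) and Tnnc2 (0.817), of which Chrnd, Neb and Tnnc2 are on the muscle list. Without control 2 and control 5, r was 0.744 for Chrnd, 0.743 for Neb, 0.764 for Tnnc2 and 0.838 for Asb3. The r of Cacng5 was 0.740 to the first probe of Cacng1 but 0.321 to the second. Cacng3 was closest to Nudt2 (r = 0.871), and Zfp870, Lnx1, Agrp and Rpain followed at 0.837 to 0.822. The closest gene to Cacng6 was Pitx3 (r = 0.916), but without ACE 6 and control 1 this r was 0.509, and the r of the next genes (Olr1714, Gpr15, Ebf2 and Gucy2e) was then 0.488 or less. Among the 6 pairs of TARPs measured on all arrays, r ran from -0.239 (Cacng4 and Cacng8) to 0.670 (Cacng2 and Cacng4). The pair differences of Cacng2 and Cacng4 had an r of -0.662. Over the 12 arrays the first probe of Cacng1 had an r of -0.370 to Cacng2.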

How the data were processed

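Gene expression was measured with 1-colour (Cy3) Agilent rat arrays in 6 control and 6 ACE cultures. Per the file headers, the authors extracted the spot intensity with Agilent Feature Extraction (11.0.1.1 for replicate 1, 11.5.1.1 for the others), which subtracts background and removes spatial trends but does not scale between arrays. The deposited table of log2 values, quantile normalised and centred on each probe's median by the authors, correlated at 0.995 to 0.998 per array with the values computed here over 23796 probes and was used as an alternative. The nicotine and imidacloprid cultures of the study were not analysed here.

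Control spots were left out and outlier spots set to missing. The log2 intensity of 42877 gene spots was quantile normalised over 12 arrays, and a probe's spots were then averaged. A probe was kept above its array's 20th percentile on at least 7 arrays with at least 4 complete pairs. CvA was fitted with limma 3.58.1 (two-sided) in R 4.3.3 (files read with the package data.table, version 1.17.8), with the replicate number as a block and Benjamini-Hochberg adjustment at 0.05 over 23796 probes, a fit tested on simulated data. Plots were made in Python 3.11.15 with matplotlib 3.10.9. The block follows the study's culture lots. Deviations of control and ACE arrays from their group means correlated at 0.449 to 0.912 for the same number and -0.439 to 0.390 for different numbers. The block removes differences in level between the culture lots and between their slides. P-values therefore rest on how the ACE minus control difference varied from lot to lot.

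Each slide held 1 pair, with control at place 1 and ACE at place 3, so place and exposure cannot be told apart. Each culture lot was thus on its own slide, and replicates 1, 2 and 3 each had their own scan batch. Differences between lots can therefore not be told apart from those between slides or, for these replicates, scans. On the arrays of replicate 3 the files give other names to 3710 spots than on the arrays of the other replicates. No family spot (0) was among them, and the names of control 1 were used. Each family gene stands by the probe well above background on the most arrays, then with the highest mean. Genes of a list are named if they define it or are among its 3 largest differences well above background on 12 arrays. Likeness is Pearson's r over the arrays, among probes past the filter and well above background on at least 6, with the 5 highest named, except that a few items of the lists, likeness and sequences are not reported here. The members and lists were chosen with earlier results of these data known. Alternatives were a shift by the 75th percentile, normexp background (offset 50), the deposited values, other filters, outlier spots kept, no or a random block, an exact signed-rank test, each replicate left out, a scan batch alone, other probes or genes in the contrast and, added after seeing the data, replicates 1 and 2 left out, the second Cacng1 probe in the contrast, and the contrast of Cacng1 with the well detected TARPs.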

Additional observations from a re-analysis of the deposited data

Results flagged for a closer look

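Both groups of each of the 10 family probes were searched for an array far from the other 5, 20 groups in all, of which chance marks about 5%. There were 2 such arrays. The log2 signal of the first Cacng1 probe on ACE 1 was 6.49, above the next value of 5.36 and the lowest of 4.70. On the same array the mean log2 signal of the muscle genes was 8.93, the highest of the ACE group. Their summed intensity, which the brightest genes dominate, was 74050 there, below the 112900 of ACE 2 and the 84790 of ACE 5. The log2 signal of the first Cacng6 probe on ACE 6 was 2.31, below the next value of 3.88 and the highest of 4.44, and it was not well above background there.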

How the results depend on the processing

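The mean of the muscle minus TARP contrast stayed below 0 under all 19 alternatives, from -1.07 to -0.35 log2 (-0.86 to -0.56 with a replicate left out). Single pairs did not always, since pair 3 was above 0 with the second Cacng1 probe. Leaving out the filter and using no or a random block could not change this mean of pair differences, which stayed at -0.74. Those settings are therefore no check of it. The Cacng1 difference, by which the family was chosen, kept its sign under the 15 alternatives run for each probe. It ran from -1.19 to -0.47 for the first and -1.31 to -0.26 for the second probe. The same filter and block settings could not change it either, and it stayed at -1.01 and -0.83 under them. The sign of Cacng2, Cacng3 and Cacng5 changed under 1, 2 and 3 alternatives, within 1 SD of the pair differences.

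The count of 1 family probe at an unadjusted limma p did not hold firmly. It was 3 after the shift by the 75th percentile, 2 with a random block, and 0 without the replicate block, without the filter, among probes well above background on all arrays (which tests 4 family probes) and in the scan batch of replicates 4 to 6. With a replicate left out it ran from 0 (without replicate 6) to 3 (without replicate 3), with 2 without replicate 5. With normexp, without replicate 1, and without replicates 1 and 2 the 1 probe counted was not the one counted in the reported fit. By the signed-rank test, unadjusted, it was 1 family probe and 2755 of all probes, and 0 after adjustment. Over all probes the adjusted count of 0 became 5 with a random block, and the unadjusted count of 3956 became 81 with no replicate block and 2810 to 4161 with a replicate left out. Of the unadjusted probes 41.5% were higher in ACE, against 19.7% after the shift by the 75th percentile and 51.5% with the deposited values. The causes were not tested. Cacng3, Cacng5 and Cacng6 lay near background, which limits their precision.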
